A study of Homo sapiens with 6 samples.

Results

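The BEX and TCEAL genes are a family of small genes that lie close together on chromosome X, and 10 of them were followed here: BEX1, BEX2, BEX4, BEX5, TCEAL1, TCEAL3, TCEAL4, TCEAL7, TCEAL8 and TCEAL9. Members were the rows of the deposited gene table that carry one of these symbols, and all 10 were found among its 35856 genes. The set was chosen by the counts of these genes in the LINC00862 and NC libraries, with their difference already known, so their differences are a description. Members called in the fit over all genes are counted only beside the share of all genes called, and those counts support nothing. RNA was sequenced from HCCLM3, a highly metastatic human hepatocellular carcinoma cell line, in 2 groups of 3 libraries. The LINC00862 group had been transfected with a vector that expresses the long non-coding RNA LINC00862. The labels name an empty vector as the alternative and mark the control group NC. The study describes a pcDNA3.1 vector for LINC00862 in this line, and whether the sequenced cells had received that one is not given in the sources used here. Whether the sequenced cells were a selected pool, a clone or transiently transfected is not given in the sources used here. The labels do not say that the 3 libraries of a group came from separate cultures, so p-values may measure technical spread alone.

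BEX stands for brain expressed X-linked and TCEAL for transcription elongation factor A-like, after a resemblance to the elongation factor TFIIS. Both subfamilies encode short, largely unstructured proteins and are known from brain and endocrine tissue, where BEX1 and BEX3 bind the p75 neurotrophin receptor and BEX2 binds the transcription factor LMO2. Several members are known to be silenced or raised in tumours, among them TCEAL7, a repressor of NF-kappaB signalling, and BEX1. Gene Ontology terms in the deposited table placed 9 of the 10 members in the nucleus and gave WW domain binding to all 6 TCEAL members.

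Libraries held 58241123 to 68229070 counts, and LINC00862 itself had 6 to 21 counts in the NC libraries and 76 to 145 in the LINC00862 libraries. The groups stood far apart as a whole. Of 20741 genes tested with edgeR's quasi-likelihood test, 64.2% were called at an adjusted p of 0.05, 34.4% higher and 29.8% lower in the LINC00862 group. The Spearman correlation of FPKM was 0.896 to 0.909 within groups and 0.754 to 0.767 between them. Marker lists moved as well. Summed FPKM of 9 hepatocyte genes was 5.67 to 5.92 in NC and 1259 to 1506 in LINC00862. Of the 7 tested, 6 were higher, among them TTR at 0 in every NC library, and 1, SERPINA1, was lower. APOA1 and APOA2 stayed near 0 in both groups, with too few counts to be tested. APOA2 had no count in NC and 0, 0 and 3 in LINC00862. APOA1 had 0, 0 and 14 counts in NC and 0, 0 and 4 in LINC00862. The fibrinogen genes FGA and FGB, with means of 796 and 550.4 FPKM, made nearly all of the LINC00862 sum. ALB, the defining hepatocyte gene, was near 0 in the NC libraries of this liver cancer line (mean 0.00780 FPKM) and at a mean of 1.51 FPKM in LINC00862. The sum of 8 mesenchymal genes was 699 to 761 in NC and 14.2 to 19.3 in LINC00862, and 6 of them were lower and 1 higher. The sum of 8 neuronal genes was 159 to 210 against 19.3 to 24.0, with ENO2, TUBB3 and UCHL1 among the 3 called lower and 1 gene called higher, and with CHGA near 0 in both groups. The sum of 8 epithelial genes was 194 to 287 in NC and 489 to 560 in LINC00862, and 7 were higher. The remaining gene, KRT8, was not called. Its FPKM was lower in LINC00862 without overlap, with means of 84.5 in NC and 62.2 in LINC00862. The sum of 5 blood cell genes was 732 to 819 in NC and 507 to 637 in LINC00862, nearly all of it HBB, and 0 of the 5 were called. The leukocyte gene PTPRC had a mean of 0.283 FPKM in NC and 0.198 in LINC00862. The part of these differences in the values below was not tested.

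The promoters of the members the values turn on are shown first, because the genes share sequence there but differ in direction. Windows run from 250 bases before to 50 bases after a gene start in RefSeq, build GRCh38.p14, and 9 of the 10 members had at least 1 (TCEAL7 had none). Capitals mark the palindrome CACGTG, the core of the E-box that basic helix-loop-helix leucine zipper factors bind. Shown are BEX1 (chrX:103064122-103064421, minus strand) and TCEAL3 (chrX:103607713-103608012, plus strand), both lower in the LINC00862 group. BEX2 (chrX:103310941-103311240, minus strand), BEX4 (chrX:103214842-103215141, plus strand) and BEX5 (chrX:102155928-102156227, minus strand) were higher. TCEAL8 (chrX:103255106-103255405, minus strand) had overlapping groups, and TCEAL9 (chrX:103356256-103356555, plus strand) was lower.
BEX1: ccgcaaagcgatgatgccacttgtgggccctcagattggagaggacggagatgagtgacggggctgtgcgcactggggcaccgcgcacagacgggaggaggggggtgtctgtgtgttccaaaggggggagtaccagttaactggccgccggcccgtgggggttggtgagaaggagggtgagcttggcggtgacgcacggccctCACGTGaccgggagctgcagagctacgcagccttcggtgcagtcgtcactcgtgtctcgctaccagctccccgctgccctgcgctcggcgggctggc
TCEAL3: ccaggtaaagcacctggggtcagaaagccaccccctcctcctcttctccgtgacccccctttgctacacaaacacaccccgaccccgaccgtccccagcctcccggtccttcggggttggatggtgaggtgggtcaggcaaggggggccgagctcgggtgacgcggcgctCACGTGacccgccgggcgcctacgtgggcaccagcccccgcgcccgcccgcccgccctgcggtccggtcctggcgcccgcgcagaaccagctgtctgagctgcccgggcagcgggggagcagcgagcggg
BEX2: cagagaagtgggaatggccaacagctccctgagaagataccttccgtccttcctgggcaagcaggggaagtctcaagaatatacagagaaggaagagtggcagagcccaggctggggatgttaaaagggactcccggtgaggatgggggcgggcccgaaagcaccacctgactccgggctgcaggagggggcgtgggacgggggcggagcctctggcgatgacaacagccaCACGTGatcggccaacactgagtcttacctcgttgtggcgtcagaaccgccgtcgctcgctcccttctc
BEX4: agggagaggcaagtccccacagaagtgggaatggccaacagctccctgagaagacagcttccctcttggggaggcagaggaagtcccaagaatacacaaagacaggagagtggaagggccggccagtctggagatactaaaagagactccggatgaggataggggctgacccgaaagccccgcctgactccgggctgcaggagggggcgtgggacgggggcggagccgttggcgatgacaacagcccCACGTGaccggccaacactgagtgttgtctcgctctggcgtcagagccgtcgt
BEX5: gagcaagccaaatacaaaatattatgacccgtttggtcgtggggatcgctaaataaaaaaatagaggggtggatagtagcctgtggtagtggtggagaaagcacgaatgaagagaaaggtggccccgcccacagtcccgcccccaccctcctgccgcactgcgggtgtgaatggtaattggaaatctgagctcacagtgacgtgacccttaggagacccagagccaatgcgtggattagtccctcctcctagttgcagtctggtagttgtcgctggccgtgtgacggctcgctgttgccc
TCEAL8: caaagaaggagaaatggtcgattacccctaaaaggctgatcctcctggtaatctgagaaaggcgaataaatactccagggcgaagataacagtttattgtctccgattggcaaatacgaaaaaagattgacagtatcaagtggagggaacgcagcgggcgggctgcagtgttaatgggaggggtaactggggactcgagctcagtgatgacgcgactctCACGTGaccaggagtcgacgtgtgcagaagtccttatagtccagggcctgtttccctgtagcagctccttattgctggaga
TCEAL9: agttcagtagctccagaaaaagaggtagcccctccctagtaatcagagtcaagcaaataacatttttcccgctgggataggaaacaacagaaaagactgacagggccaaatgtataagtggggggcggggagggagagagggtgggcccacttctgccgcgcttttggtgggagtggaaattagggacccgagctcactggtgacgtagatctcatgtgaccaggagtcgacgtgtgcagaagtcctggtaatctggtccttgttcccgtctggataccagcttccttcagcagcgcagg

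CACGTG, searched on both strands, was present in 7 of the 9 members with a window, and in 8.77% of the 27305 genes with a RefSeq window. BEX5 and TCEAL9 lacked it. Its first base lay 3 to 80 bases before a gene start in the windows that held it. The longer palindrome TCACGTGA, which contains CACGTG, was present in BEX1, TCEAL1, TCEAL3, TCEAL4 and TCEAL8, against 1.18% of all genes. The 8-letter word ACGTGACC, which overlaps both, was the one shared by most members and was found in 6 of 9, BEX5 among them, against 1.85% of all genes. TATAAA was in 0 of 9 and in 14.0% of all genes. The motifs were chosen after the promoters had been read. CACGTG was in members that were lower in the LINC00862 group (BEX1, TCEAL3, TCEAL4), higher (BEX2, BEX4) and overlapping between groups (TCEAL1, TCEAL8).

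The promoters of BEX2 and BEX4 were the most alike of 45 pairs formed by these genes and BEX3, with 84.3% of aligned positions identical, and both genes were higher in the LINC00862 group. BEX1 and BEX3 came next at 73.8%, and both were lower. TCEAL8 and TCEAL9 followed at 60.9%, and of these TCEAL9 was lower while the groups of TCEAL8 overlapped. The other pairs ran from 58.6% down to 45.2%. The alignments held gaps, and the identity between unrelated promoters was not measured, so the lower percentages do not by themselves mark shared sequence. The least alike pair, TCEAL3 and TCEAL4, were both lower as well. Whether promoter likeness goes with direction was not tested.

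Within the BEX subfamily, the members differed in opposite directions. Gene positions below are those of the deposited table (hg38). BEX1 (ENSG00000133169, chrX:103062651-103064171), an adaptor that binds the p75 neurotrophin receptor, was the most abundant member in NC, at 93.5, 146.6 and 150.8 FPKM, and was at 0.427, 0.422 and 0.457 FPKM in the LINC00862 libraries. These levels rest on 4924 to 7998 counts per NC library and 23 to 26 per LINC00862 library. The lowest NC library was thus far above every LINC00862 library. The fitted log2 fold change was -8.03 ± 0.32 (SE derived from the test statistic, n = 3 per group), a 261-fold lower level.

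BEX2 (ENSG00000133134, chrX:103309346-103310990), a partner of LMO2, took the opposite course, at 0.651, 1.22 and 1.94 FPKM in NC and 13.2, 15.97 and 12.1 FPKM in LINC00862. Its log2 fold change was 3.57 ± 0.39, an 11.8-fold higher level, and the groups did not overlap. BEX4 (ENSG00000102409, chrX:103215108-103217246), which is known to associate with microtubules, had 7, 0 and 15 counts in the NC libraries and 182, 190 and 223 in the LINC00862 libraries. In FPKM these were 0.0741, 0 and 0.164 against 1.81, 2.17 and 2.54, a log2 fold change of 4.85 ± 0.78. The groups did not overlap, but the low NC counts left the size uncertain, and it was 5.94 without NC replicate 3 and 4.28 without NC replicate 2.

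BEX5 (ENSG00000184515, chrX:102153708-102155977) had no count in any NC library and 258, 177 and 184 counts in the LINC00862 libraries, or 3.42, 2.72 and 2.79 FPKM. Set against 3 counts over the whole NC group, its level in LINC00862 was at least 197-fold higher. This bound, like the others below, covers counting error only. In the LINC00862 libraries, BEX5 was thus above BEX1, which led the family in NC.

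The TCEAL members were either lower in the LINC00862 group or had groups that overlapped. TCEAL7 (ENSG00000182916, chrX:103330229-103332326), the NF-kappaB repressor, had 197, 249 and 197 counts in NC (2.60, 3.32 and 2.56 FPKM) and no count in any LINC00862 library. With 3 counts allowed over the LINC00862 group, its level there was at least 225-fold lower. TCEAL3 (ENSG00000196507, chrX:103607451-103629690), whose protein belongs to the TFIIS-like group, was at 14.6, 18.6 and 18.6 FPKM in NC and 0.669, 0.822 and 0.735 FPKM in LINC00862. Its log2 fold change was -4.36 ± 0.21, 20.5-fold lower. Both genes were clear of overlap, but only TCEAL3 could still be measured in the LINC00862 libraries, with 114 to 127 counts.

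TCEAL4 and TCEAL9 differed less. TCEAL4 (ENSG00000133142, chrX:103576231-103587736) was at 28.7, 38.1 and 37.1 FPKM in NC and 9.69, 7.25 and 8.71 FPKM in LINC00862, a log2 fold change of -1.85 ± 0.20. TCEAL9 (ENSG00000185222, chrX:103356489-103358462), a WW domain-binding protein also known as WBP5, was at 35.8, 43.4 and 43.1 FPKM against 13.9, 11.9 and 14.8 FPKM, a log2 fold change of -1.42 ± 0.18. Neither gene's groups overlapped, and both stayed well measured in the LINC00862 libraries, with 1210 to 1869 counts for TCEAL4 and 1554 to 2094 for TCEAL9. In bulk RNA, fewer cells with a transcript and less of it per cell cannot be told apart.

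TCEAL1 and TCEAL8 were the members whose groups overlapped. TCEAL1 (ENSG00000172465, chrX:103628704-103630953), a nuclear phosphoprotein that modulates transcription, was at 6.34, 8.06 and 7.83 FPKM in NC and 5.87, 5.96 and 7.25 FPKM in LINC00862. TCEAL8 (ENSG00000180964, chrX:103252995-103255185) was at 19.3, 20.5 and 19.0 FPKM in NC and 22.3, 20.1 and 21.3 FPKM in LINC00862. Their log2 fold changes were -0.05 ± 0.22 and 0.29 ± 0.15, against a median of 0.11 over all tested genes. The sign for TCEAL1 turned under other scalings (0.17 with upper quartile scaling), and that for TCEAL8 was 0.50 with the latter.

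In all, 8 of the 10 members were called, 5 lower and 3 higher, where 64.2% of all tested genes were called. By the FPKM of single libraries, 8 of 10 did not overlap between groups, against 71.1% of all tested genes. Called changes of 4-fold or more were seen in 6 members (31.1% of all tested genes) and of 16-fold or more in 5 members (15.9%). The median log2 fold change of the members was -0.73, against 0.11 for all tested genes, and the median absolute change was 3.96, against 1.16. These counts describe members chosen for their difference.

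The order of the levels was rearranged. By mean FPKM in NC, BEX1 (130.3 ± 31.9, SD, n = 3) came first, then TCEAL9 (40.8 ± 4.30) and TCEAL4 (34.7 ± 5.21). The mean and SD ranges of TCEAL9 and TCEAL4 overlapped, but TCEAL9 was the higher in every NC library. TCEAL8 (19.6 ± 0.784) and TCEAL3 (17.3 ± 2.28) followed with overlapping mean and SD ranges, though TCEAL8 was the higher in every NC library. Then came TCEAL1 (7.41 ± 0.932), TCEAL7 (2.83 ± 0.425) and BEX2 (1.27 ± 0.648), with BEX4 and BEX5 at or near 0. In LINC00862, TCEAL8 (21.2 ± 1.08) came first, while BEX2 (13.8 ± 2.00) and TCEAL9 (13.5 ± 1.48) did not differ beyond their spread. Next came TCEAL4 (8.55 ± 1.23), TCEAL1 (6.36 ± 0.771), BEX5 (2.97 ± 0.386), BEX4 (2.17 ± 0.365), TCEAL3 (0.742 ± 0.0767) and BEX1 (0.435 ± 0.0187), with TCEAL7 listed at 0.

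Added together, the members made 201.7, 279.8 and 281.1 FPKM in the NC libraries and 71.2, 67.3 and 70.6 FPKM in the LINC00862 libraries. BEX1 alone was 50.8% ± 3.88 (SD, n = 3) of the sum in NC and 0.624% ± 0.0234 in LINC00862. TCEAL8, whose FPKM overlapped between groups, went from 7.88% of the sum (6.75% to 9.58% over the libraries) to 30.4% (29.8% to 31.2%). BEX2 went from 0.483% to 19.8% of the sum, which put the groups far apart. The share of TCEAL9 was 16.2% in NC and 19.4% in LINC00862, and its libraries overlapped (15.3% to 17.8% against 17.7% to 21.0%). The BEX members together were 51.3% of the sum in NC and 27.8% in LINC00862, where most of that was BEX2.

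**Figure D1:**
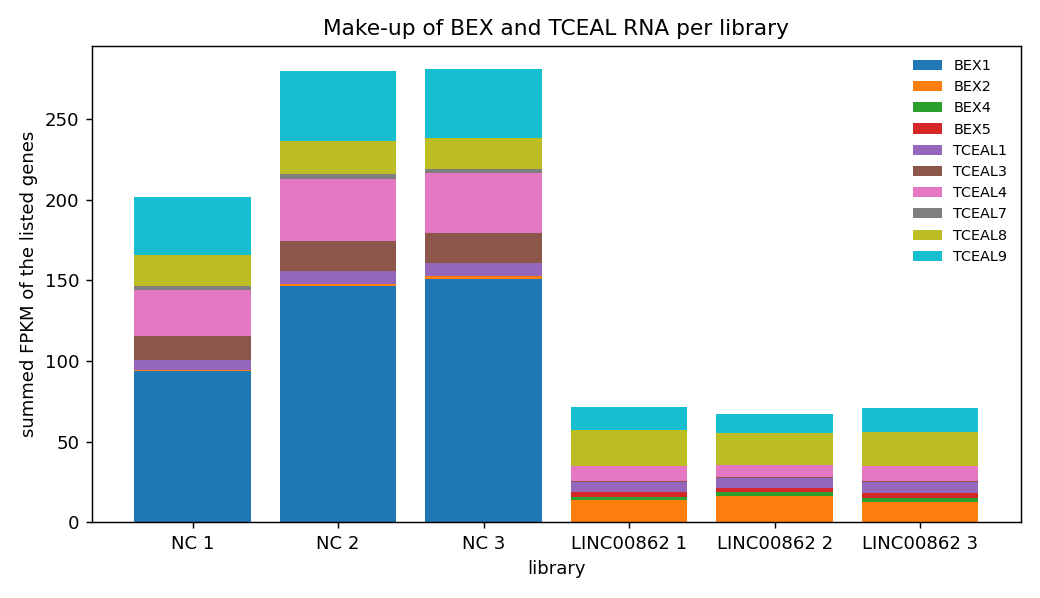
Stacked FPKM of the members in each of the 6 libraries, with 1 bar per library. BEX1 fills 50.8% of the NC sum on average, and TCEAL8, BEX2, TCEAL9 and TCEAL4 make most of the smaller LINC00862 sum.

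Of the family's other genes, BEX3 was measured well. BEX3, a death-signal adaptor of the p75 neurotrophin receptor, was at 50.1, 66.2 and 77.5 FPKM in NC and 14.9, 15.4 and 11.0 FPKM in LINC00862. It fell by 2.08 ± 0.22 on the log2 scale (edgeR adjusted p = 3.99e-05), and its groups did not overlap. TCEAL6 had 4, 0 and 6 counts in NC and none in LINC00862, too few to be tested. It shares 101 of the 1007 windows of 100 bases in its transcript with other genes, and TCEAL3 shares 2.85% of its own with TCEAL6, so a small part of the TCEAL3 counts is uncertain. No such window was shared by the other members. The windows were counted in 1 transcript per gene, so they do not cover the 987 bases where TCEAL3 and TCEAL1 overlap. TCEAL2 and TCEAL5 were not found by symbol among the deposited genes.

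**Figure D2:**
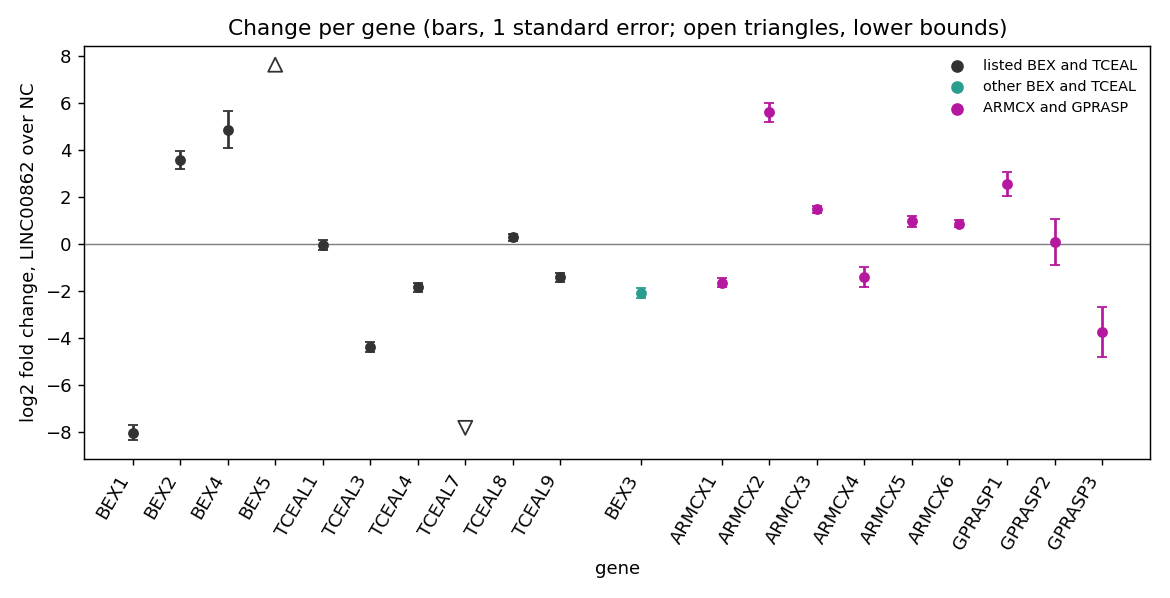
Log2 fold change (LINC00862 over NC) with SE for the members and related genes, with lower bounds marked where a group had no counts. BEX1 lies at -8.03 and BEX4 at 4.85, and TCEAL1 and TCEAL8 lie closest to 0 among the members.

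In the deposited coordinates (hg38), the 12 BEX and TCEAL genes of the table span 1490 kb of chromosome X, and BEX1 to TCEAL1 span 568 kb. Members of opposite direction lie side by side. From BEX1 (lower) the order runs through BEX4 (higher), TCEAL8 (overlapping groups), BEX2 (higher), TCEAL7 (lower), TCEAL9, BEX3, TCEAL4 and TCEAL3 (all lower) to TCEAL1 (overlapping groups). BEX2 and TCEAL7, which differed in opposite directions, lie 19.2 kb apart. TCEAL3 and TCEAL1 share 987 bases on the same strand, and their log2 fold changes were -4.36 and -0.05. How reads from the shared bases were assigned is not given in the sources used here, so part of both counts is uncertain. BEX5 stands 907 kb away from BEX1, on the far side from the other members. The members lie on both strands, 6 on the plus and 4 on the minus, and each direction had members on both.

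**Figure D3:**
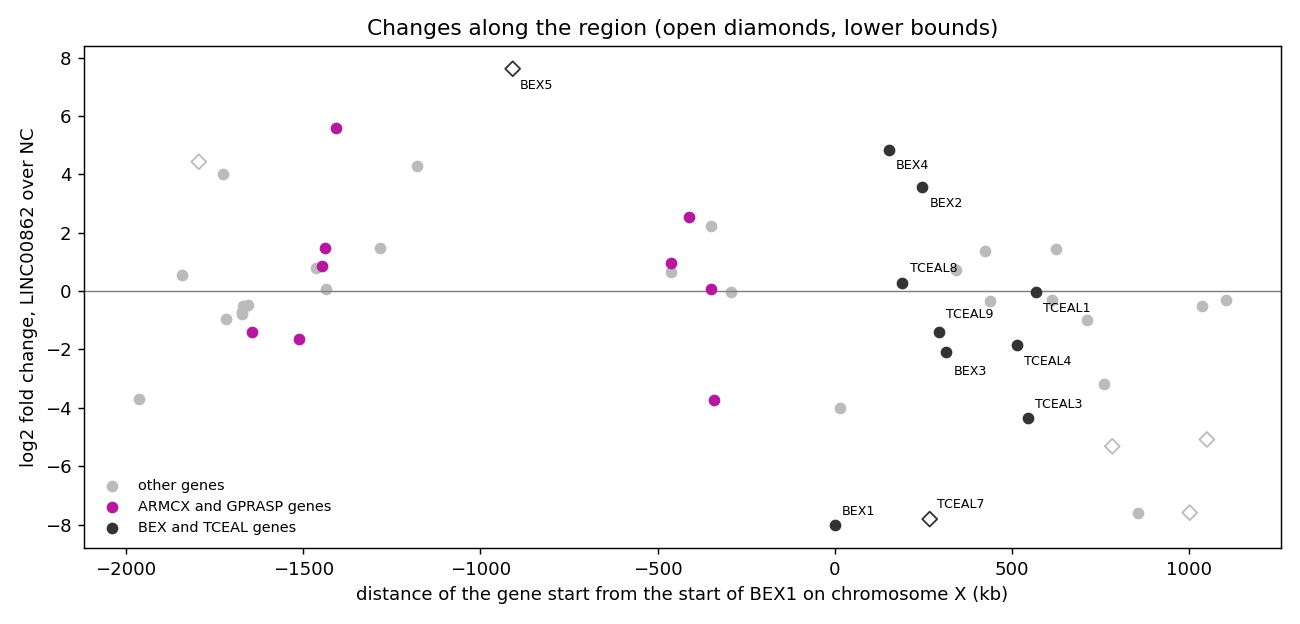
Log2 fold change (LINC00862 over NC) of tested genes within 1 Mb of the family, by distance from the start of BEX1 in kb, with open diamonds for bounds. Genes above and below 0 are interspersed along the region, in the family and among its neighbours.

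Among the other genes within 1 Mb of the family, 39 were tested and 25 were called, which is 64.1% and so near the share of all tested genes. Of these, 11 were higher and 14 lower, with a median log2 fold change of -0.30. Over all of chromosome X, 456 of 660 tested genes were called (69.1%), 168 higher and 288 lower, with a median of -0.51. By the fitted log2 fold change, the largest rises were those of TAF7L, which had no count in NC and was at least 21.6-fold higher, ARMCX2 and ZMAT1 (log2 fold changes of 5.60 and 4.28). The largest falls by the same measure were those of TMSB15B on the minus strand, TMSB15B-AS1 and ZCCHC18, which had no count in LINC00862 and were at least 193-fold, 39.9-fold and 33.9-fold lower there. The bounds follow the NC counts and do not rank genes by size of change. The table holds a second row for TMSB15B, on the plus strand, with 231, 271 and 197 counts in NC and 0, 0 and 3 in LINC00862. MORF4L2, the next gene above TCEAL1, had a log2 fold change of -0.30 (edgeR adjusted p = 0.114).

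The ARMCX and GPRASP genes, which lie in the same part of chromosome X and encode armadillo-repeat and receptor-sorting proteins, also split. Of 9 tested, 5 were higher, 3 were lower and GPRASP2 was not called, where 64.2% of all tested genes were called. All 9 lie within 1 Mb of the family and were already counted among the neighbours above. ARMCX2 had a log2 fold change of 5.60 ± 0.40 (edgeR adjusted p = 3.55e-06) and GPRASP1 of 2.56 ± 0.51 (adjusted p = 0.00180). ARMCX3, which has a role in mitochondrial transport, had 1.47 ± 0.14 (adjusted p = 2.16e-05). ARMCX1 fell by 1.64 ± 0.19 on the log2 scale (adjusted p = 6.66e-05). ARMCX5, GPRASP1, GPRASP2 and GPRASP3 overlap the span of readthrough transcripts on the same strand, so their values are less certain. GPRASP2 was at 0.09 ± 0.99. GPRASP3, among the lower genes, was at -3.75 ± 1.06, with 53, 3 and 0 counts in LINC00862. CACGTG was present in 5 of 8 of their promoters.

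The partners known for these proteins were measured too. Of 10 tested neurotrophin pathway genes, 3 were higher and 5 lower, where 64.2% of all tested genes were called. NGFR, the p75 receptor, had no count in LINC00862 and was at least 59.5-fold lower, from a mean of 0.205 FPKM in NC. NTRK2, a neurotrophin receptor kinase, had a log2 fold change of 6.32 ± 0.85 (edgeR adjusted p = 1.87e-04). Its mean FPKM was low in both groups, at 0.000903 in NC and 0.0758 in LINC00862. MAGED1, which binds the p75 receptor, had a log2 fold change of 0.29 ± 0.16 (adjusted p = 0.142). RELA, the NF-kappaB subunit, had -0.74 ± 0.15 (adjusted p = 0.00170), and NFKB1 had -0.49 ± 0.19 (adjusted p = 0.0531).

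LMO2, the partner of BEX2, had a log2 fold change of 3.27 ± 0.44 (edgeR adjusted p = 1.87e-04), and LDB1, which bridges LMO2 to its complex, of -1.29 ± 0.13 (adjusted p = 3.77e-05). Mean FPKM of LMO2 was low, at 0.0774 in NC and 0.690 in LINC00862. LMO2 and LDB1 were 2 of the 4 tested genes of that list, and the remaining 2 were not called. Of 6 TFIIS and elongin genes, 3 were higher and 2 lower, where 64.2% of all tested genes were called. TCEA3, a TFIIS paralogue, had 5.86 ± 0.28 (adjusted p = 3.55e-07). TCEA1, the widely expressed TFIIS, had 1.73 ± 0.14 (adjusted p = 9.35e-06). Of 5 genes of the REST repressor complex, which silences neuronal genes in other tissues, 4 were lower, against 29.8% of all tested genes. HDAC2 had -2.85 ± 0.14 (adjusted p = 3.94e-07) and HDAC1 -1.85 ± 0.13 (adjusted p = 3.01e-06), while REST had -0.36 ± 0.22 (adjusted p = 0.182).

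By the Euclidean distance between centred log2 CPM profiles over the 6 libraries, the members closest to each other were TCEAL1 and TCEAL8 (0.542) and TCEAL4 and TCEAL9 (0.557), followed by BEX1 and TCEAL7 (1.54). The genes closest to the members' mean profile were AKIRIN2 (0.085), GPS2 (0.142), ASB6 (0.176), IER5 (0.177) and PNPLA2 (0.180). That mean joins members of opposite direction and so is shallow.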

How the data were processed

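Stranded, oligo(dT)-selected RNA libraries were sequenced from 3 NC and 3 LINC00862 samples. The submitters' processing notes name cutadapt 1.9, UMI-tools, HISAT2 2.0.4, StringTie 1.3.4d, DESeq2, edgeR and hg38. The role of UMI-tools is not given in the sources used here. The authors deposited raw read counts and FPKM per gene in 1 table. Counts entered edgeR 4.0.16 (R 4.3.3) with its expression filter, TMM scaling and the quasi-likelihood test, adjusted by Benjamini-Hochberg over 20741 genes. The SE of a log2 fold change is its absolute value divided by the square root of the test's F statistic. It is not a standard error estimated by the fit. FPKM, deposited by the authors, served for levels between genes and for overlap of libraries. Authors' fold changes and p-values were not used.

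Members and all gene lists were chosen with earlier results of these data known. Named were every member, listed family and partner genes, the 3 neighbours within 1 Mb with the largest rise and fall, the genes next to the family, and the 5 genes nearest to the members' mean profile. A listed partner gene is not reported here by name. Genes without counts in a group received a bound from 3 counts over that group on the CPM scale. The counts of 4-fold and 16-fold changes were chosen after seeing the data. Depth was 58241123 to 68229070 counts per library, and replicates differed by more than sampling noise. Promoters were read from RefSeq (GRCh38.p14) and aligned globally with Biopython 1.88, and shared 100-base windows were counted in GENCODE 29 transcripts. Alternatives were DESeq2 1.42.0, other scalings and filters, a replicate block, limma 3.58.1 on log2(FPKM + 1) and log2(FPKM + 0.1), an adjusted p of 0.01, other windows and leaving out each library.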

Additional observations from a re-analysis of the deposited data

How the results depend on the processing

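Calls for 8 of the 10 members kept their direction and their side of the threshold under all 13 alternative fits, the limma fits and each left-out library included, but these calls rest on the contrast that chose the members. TCEAL1 was never called, and its log2 fold change turned from -0.05 to 0.0038 with DESeq2, 0.17 with upper quartile scaling, and -0.21 to 0.034 when 1 library was left out. TCEAL8 moved past the threshold with DESeq2 (0.34) and with upper quartile scaling (0.50). Upper quartile scaling moved the median log2 fold change of the members from -0.73 to -0.52, and that of all tested genes from 0.11 to 0.32. A window of 0.5 Mb gave 13 called neighbours of 23 tested (56.5%) in place of 25 of 39 (64.1%). BEX4 rests on few NC counts, and ranged from 4.28 to 5.94 over the left-out libraries. The pseudocount in log2(FPKM + 1) compresses low genes, and there BEX4 was at 1.55, BEX5 at 1.99, TCEAL7 at -1.93, BEX2 at 2.73, TCEAL3 at -3.38 and BEX1 at -6.48. Replicate numbers did not pair the libraries (correlations of deviations -0.05, -0.03 and -0.01), and the replicate block called 12098 genes in place of 13321, with 8 members called and 7 ARMCX and GPRASP genes in place of 8. That last count was 6 at an adjusted p of 0.01, and 7 with limma on log2(FPKM + 1) and without NC replicate 1, NC replicate 2, LINC00862 replicate 2 or LINC00862 replicate 3.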
